A study of Mus musculus with 6 samples.

Results

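The cell cycle genes examined here are the D-type cyclins Ccnd1, Ccnd2 and Ccnd3, their kinase partners Cdk4 and Cdk6, the Cip/Kip inhibitors Cdkn1b (p27) and Cdkn1c (p57), and the Ink4 inhibitors Cdkn2a, Cdkn2b (p15) and Cdkn2c (p18). They were chosen by the gene name that the array files give to each probe. This gave 16 of 55681 probes for 10 of the 22942 genes that could be named. The cells were 3T3 cells, an established mouse fibroblast line, transfected with a GapmeR against the lncRNA Ntep or with a control GapmeR. A GapmeR is an antisense oligonucleotide that recruits RNase H to the RNA it pairs with. Both groups received 50 nM for 48 h, with 3 arrays in each group from 3 experiments that each held both GapmeRs. A single GapmeR against Ntep was used, so effects of its sequence and of its target cannot be told apart, and all results hold for this line.

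D-type cyclins bind CDK4 and CDK6 and start the phosphorylation of the retinoblastoma protein, which frees E2F factors to drive the genes of S phase. Ink4 proteins bind CDK4 and CDK6 directly, whereas Cip/Kip proteins bind cyclin-CDK complexes. Cdkn2a also encodes Arf, a regulator of P53, from a separate first exon, and mouse fibroblasts that become permanent lines on serial passage have commonly lost Arf or P53.

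The target of the GapmeR, A630089N07Rik (Ntep), had a normalized signal of 471.9, 91.5 and 226.2 on the arrays labelled GapmeR Ntep (replicates 1 to 3) and of 271.4, 272.4 and 361.2 on the control arrays. Between the labels the log2 difference of the target was -0.48 (SE 0.58, limma adjusted p = 0.632), and the groups overlapped. A lower target signal was thus not detected in the group test. Within experiments the difference went with the label in experiments 2 and 3 (-1.57 and -0.68) and against it in experiment 1 (0.80). Groups are therefore called by their labels, and directions refer to these labels. All 6 arrays lay on 1 slide. Of the probes, 43.7% to 53.3% were well above background per array, the detection call of the scanner software. Normalized signal is the background-subtracted intensity after quantile normalization.

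The fibroblast label was checked with marker genes. Of 12 fibroblast markers, 10 were well above background on all 6 arrays, among them Col1a1, Col3a1, Vim and Pdgfrb, while Lum was so on 1 array and Dcn on 4. Their summed signal was 615467, 787640 and 594223 for the GapmeR Ntep label and 894273, 941877 and 854716 for the control. None of the 11 tested passed adjustment in limma without pairing, against 5.30% of all tested probes. With the replicate number as a block, Dcn passed, as lower (adjusted p = 0.031), against 13.8% of all tested probes. The groups did not overlap for 3, Col1a1 (log2 -0.43, adjusted p = 0.212), Col1a2 (-0.71, 0.135) and Col3a1 (-0.81, 0.164), against 32.1% of all tested probes. The macrophage markers Ptprc, Adgre1 and Fcgr1 were not well above background on any array, nor were the endothelial markers Cdh5 and Tek, the muscle marker Myod1 and the neural marker Map2. Other markers of these cell types, Pecam1 and Kdr, Des, and Tubb3 and Gfap, were well above background on all 6 arrays. Of the epithelial markers, Krt8, Krt18, Krt5 and Krt14 were well above background on all arrays, while Epcam was so on 2 and Cdh1 on 3. The remaining markers were so on some arrays, Lyz2 (macrophage) on 3, Myog and Actc1 (muscle) on 4 and 1, and Rbfox3 (neural) on 1. The macrophage-associated genes Cd68, Csf1r, Cd14 and Itgam were also detected on all arrays. Summed over the 8 macrophage markers, the signal came to 75236, 42456 and 50444 for the GapmeR Ntep label and 27404, 19934 and 21312 for the control. Their part in the values of the cell cycle genes was not tested.

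None of the 10 genes passed the test between the labels. In bulk RNA like this, fewer expressing cells and less RNA per cell cannot be told apart. With 1 probe, the brightest, standing for each gene, 9 genes had enough signal to be tested (the brighter group averaging 50 or more). Limma called 0 of them at an adjusted p under 0.05, with Benjamini-Hochberg adjustment across the whole array. Across the array, 1642 of 30990 tested probes (5.30%) passed the same limit, and 4292 (13.8%) passed with the replicate number as a block, which again left 0 of the 9 genes. At a fold of at least 2 with an unadjusted p under 0.01, the counts were 0 of 9 genes and 8.13% of all tested probes. At an unadjusted p under 0.05 alone, limma gave 0 of 9 genes and 1 of 15 tested probes of these genes, against 25.0% of all tested probes. The methods' t-test gave 0 genes with and without adjustment. The groups failed to overlap for 1 of 9 genes (Ccnd2), against 32.1% of all tested probes. The median log2 difference was -0.14 over the 9 genes and 0.06 over all tested probes, with 3 genes higher and 6 lower. Scaling to the 75th percentile moves the median of all tested probes by 0.16, to 0.22, and turns Ccnd3 and Cdk4 from lower to higher. With so few genes these shares are a description, and a missed threshold does not show that levels were equal, so the 95% interval of each difference is given.

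**Figure D1:**
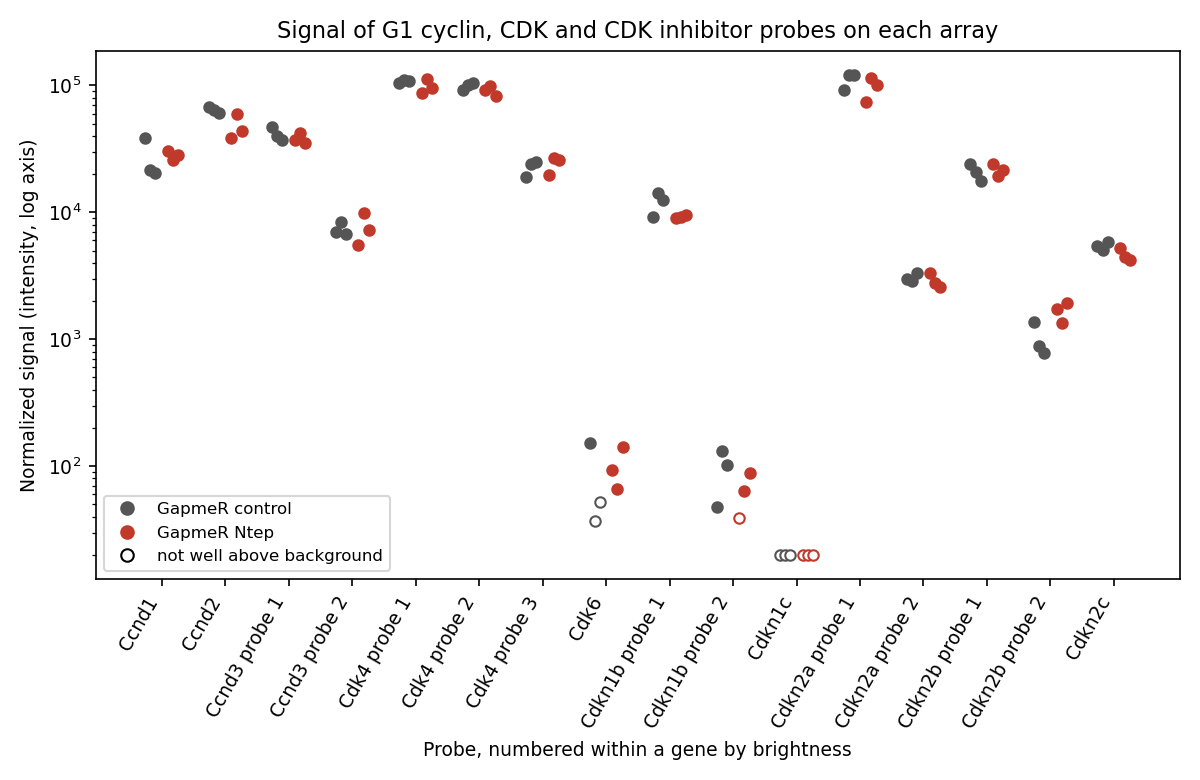
Normalized signal (intensity, log axis) of the 16 probes on each of the 6 arrays, grey for GapmeR control and red for GapmeR Ntep, with open circles where a probe was not well above background. Within most probes the 2 colours overlap, and Cdkn1c lies at the floor of 20 on every array; heights of different probes are not comparable.

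Among the D cyclins, which link growth signals to the cell cycle, Ccnd2 was the one whose groups separated. Its probe read 38681, 59327 and 43580 on the arrays labelled GapmeR Ntep and 67900, 63475 and 60428 on the control arrays. Every Ntep array thus lay below every control array, although replicate 2 came close to the controls. Means were 47196 ± 10788 and 63934 ± 3757 (SD, n = 3 each). The log2 difference was -0.46 (SE 0.21, 95% interval -0.98 to 0.06), and it did not pass adjustment (limma adjusted p = 0.242, lower in 3 of 3 experiments). An exact two-sided permutation test gave p = 0.1, the smallest that 3 against 3 arrays allow. The groups overlapped after scaling to the 75th percentile and after normexp background correction.

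Ccnd1, the D cyclin best known from fibroblasts stimulated with serum, gave 30237, 25920 and 28432 on the arrays labelled GapmeR Ntep and 38309, 21721 and 20474 on the control arrays. Control replicate 1 was the highest of all and the other 2 controls were the lowest, so the Ntep values lay between them. Between the labels the log2 difference was 0.13 (SE 0.28, 95% interval -0.55 to 0.81, adjusted p = 0.8), and it turned to -0.04 without GapmeR control replicate 3. Within experiments it was -0.34, 0.25 and 0.47.

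Ccnd3 was covered by 2 probes, which lie on chromosome 17 at bases 47736579 to 47736638 and 47736267 to 47736326 of mm9. The brighter one gave 37422, 42081 and 35211 on the arrays labelled GapmeR Ntep and 46997, 39706 and 37365 on the control arrays. These ranges overlapped widely. Its log2 difference was -0.11 (95% interval -0.54 to 0.32, adjusted p = 0.724), and 0.07 after 75th percentile scaling. The dimmer probe ranged from 5496 to 9812 with a log2 difference of -0.00.

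Cdk4, the catalytic partner of D cyclins in fibroblasts, was measured by 3 probes within bases 126503162 to 126504338 of chromosome 10. The brightest gave 87023, 112498 and 96133 on the arrays labelled GapmeR Ntep and 105131, 110635 and 108396 on the control arrays. The control values were close together, and Ntep replicate 2 was above all of them. For this probe the log2 difference was -0.14 (SE 0.17, 95% interval -0.56 to 0.27, adjusted p = 0.632), but 0.10 after 75th percentile scaling, where its direction flips and its groups do not overlap. The other 2 probes gave -0.12 and 0.09. Their intervals, -0.52 to 0.28 and -0.43 to 0.60, overlapped that of the brightest probe.

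Cdk6, the other kinase partner, lay near the limit of detection. Its only probe gave 93.0, 65.7 and 142.3 on the arrays labelled GapmeR Ntep and 152.5, 37.3 and 52.3 on the control arrays. It was well above background on 3 of 3 Ntep arrays and on 1 of 3 control arrays. That control array, replicate 1, held the highest value of all. The log2 difference of 0.52 had the widest interval of the 9 genes (-0.90 to 1.93, adjusted p = 0.607), and within experiments it was -0.71, 0.82 and 1.44. With 1 array left out it ran from 0.09 (control replicate 2) to 1.12 (control replicate 1, where the groups do not overlap).

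**Figure D2:**
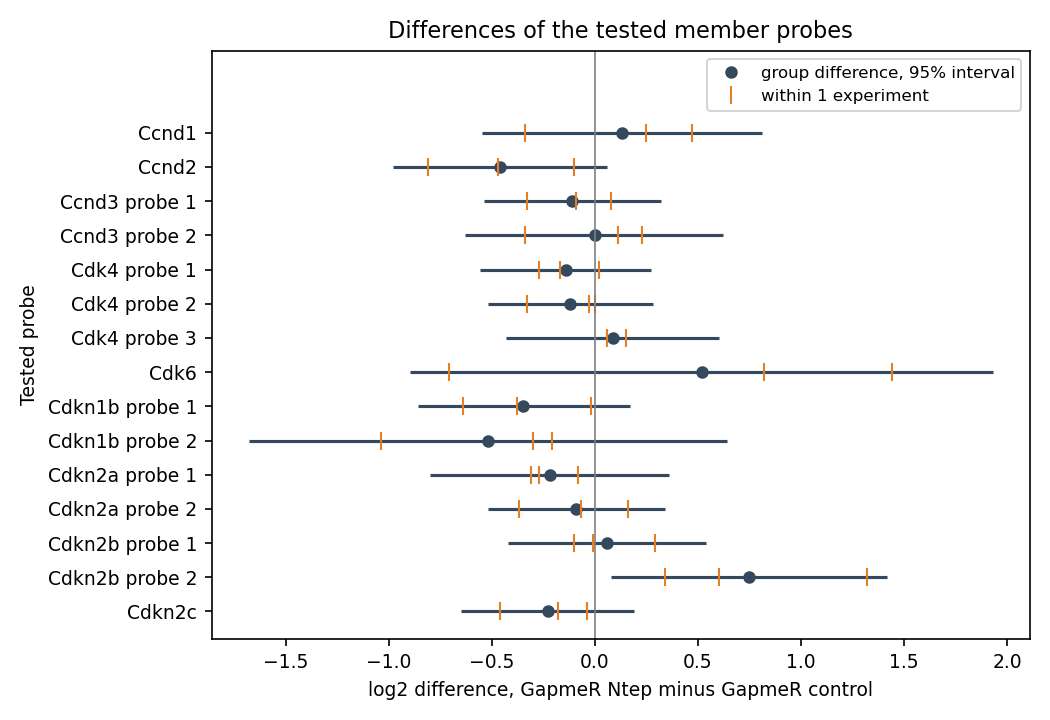
log2 differences (GapmeR Ntep minus GapmeR control) of the 15 tested probes, with dots for group differences, lines for limma 95% intervals and orange ticks for the differences within each of 3 experiments. The intervals of 14 probes include 0, and that of the dimmer Cdkn2b probe runs from 0.08 to 1.42.

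Cdkn1b encodes p27, which accumulates when fibroblasts leave the cycle and is controlled largely through its turnover as a protein. The brighter of its 2 probes gave 8982, 9106 and 9512 on the arrays labelled GapmeR Ntep and 9125, 14147 and 12403 on the control arrays. The Ntep values were nearly alike, and control replicate 1 fell among them, while the other 2 controls were higher. This gave a log2 difference of -0.35 (SE 0.21, 95% interval -0.86 to 0.17, adjusted p = 0.359). It was lower in 3 of 3 experiments, though at -0.02 in experiment 1. The exact permutation p was 0.2. With 1 array left out the difference ran from -0.53 (control replicate 1, where the groups do not overlap) to -0.21 (control replicate 2). The dimmer probe, well above background on 5 of 6 arrays, had a log2 difference of -0.52 with an interval of -1.68 to 0.64.

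Cdkn1c encodes p57, an imprinted inhibitor expressed from the maternal copy. Its probe, at bases 150644753 to 150644812 of chromosome 7, was well above background on 0 of 6 arrays and stood at the floor of 20 on each. It was not tested, and no difference is given. Of 11 genes listed from the imprinted region around it, 9 were tested and 0 passed adjustment, against 5.30% of all tested probes. At an unadjusted p under 0.05 there was 1, against 25.0% of all tested probes, and the median log2 difference was -0.34. Igf2 and Phlda2 were not well above background on any array either. H19, a noncoding RNA of the region, had the widest spread, with signals of 24.5, 1139 and 229.4 on the arrays labelled GapmeR Ntep and 136.8, 1824 and 1306 on the control arrays. Its log2 difference was -1.89 (SE 1.62, adjusted p = 0.497), and it ran from -3.21 to -0.43 with 1 array left out, was -0.99 as the mean of its probes, and had an adjusted p of 0.0647 with the replicate block. Slc22a18 (-1.28), Tspan32 (-0.90) and Cd81 (-0.34) were also lower without passing, and Kcnq1 was not well above background on any Ntep array. With the replicate block, Slc22a18 passed at an adjusted p of 0.04, although its probe was well above background on only 4 arrays.

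All Ink4 genes were detected in these cells. The 5 probes of Cdkn2a, Cdkn2b and Cdkn2c were each well above background on 6 of 6 arrays, and the same 5 were called present when a signal significantly above background or a normalized signal of at least 50 was asked for. The lowest signal that the software called well above background lay between 36.1 and 81.4, depending on the array.

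Cdkn2a encodes p16, which blocks CDK4 and CDK6, and Arf. The brighter probe, at bases 88920405 to 88920464 of chromosome 4, gave 73635, 114463 and 100960 on the arrays labelled GapmeR Ntep and 91307, 120759 and 121345 on the control arrays. In both groups replicate 1 was the lowest array, and the groups overlapped, although the Ntep array was lower in 3 of 3 experiments (-0.31, -0.08 and -0.27). The log2 difference was -0.22 (SE 0.24, 95% interval -0.80 to 0.36, adjusted p = 0.596), and 0.00 after 75th percentile scaling. With 1 array left out it ran from -0.36 (control replicate 1 or Ntep replicate 2) to -0.04 (Ntep replicate 1). The second probe, at bases 88920543 to 88920602, gave 3304, 2763 and 2601 against 2967, 2891 and 3356. Its log2 difference was -0.09 (95% interval -0.52 to 0.34, adjusted p = 0.77). Transcripts for p16 and Arf share their last exons, and the files name both transcripts for these probes, so the signal cannot be divided between them.

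Cdkn2b encodes p15, the neighbouring Ink4 protein, which responds to TGF-beta in many cells. Its brighter probe gave 24089, 19279 and 21602 on the arrays labelled GapmeR Ntep and 24229, 20663 and 17655 on the control arrays. These values interleaved. The log2 difference was 0.06 (SE 0.20, 95% interval -0.42 to 0.54, adjusted p = 0.869), and it turned to -0.02 without GapmeR Ntep replicate 1 and to -0.05 without GapmeR control replicate 3.

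The dimmer Cdkn2b probe gave 1720, 1349 and 1947 on the arrays labelled GapmeR Ntep and 1360, 888.3 and 779.4 on the control arrays. Only control replicate 1 reached into the Ntep range. A log2 difference of 0.75 resulted (SE 0.27, 95% interval 0.08 to 1.42, adjusted p = 0.161), higher in 3 of 3 experiments. The log2 differences of the 2 Cdkn2b probes thus lay 0.69 apart, and their intervals overlapped. The ratio between the probes did not overlap between the groups, which held for no other probe pair of the 10 genes. Its exact permutation p was 0.1, the smallest possible, so this comparison cannot pass a threshold of 0.05. As the mean of both probes, Cdkn2b gave a log2 difference of 0.41 (SE 0.22, limma adjusted p = 0.316). The brighter probe lies at bases 88952276 to 88952335 of chromosome 4 and the dimmer one at 88952720 to 88952779.

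Cdkn2c encodes p18, and its probe gave 5262, 4422 and 4221 on the arrays labelled GapmeR Ntep and 5395, 5010 and 5812 on the control arrays. Ntep replicate 1 was higher than 1 control, so the groups overlapped. The log2 difference was -0.23 (SE 0.17, 95% interval -0.65 to 0.19, adjusted p = 0.459, lower in 3 of 3 experiments). Cdkn2d (p19), the remaining Ink4 gene, was well above background on 6 of 6 arrays, with signals from 18576 to 23395 and a log2 difference of 0.12.

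Since Cdkn2a has 2 starts that the probes do not separate, the promoters of its starts and of Cdkn2b are shown, as the 250 bases before each start in RefSeq for GRCm38.p6, written 5′ to 3′ on the minus strand. Capitals mark a GC box (GGGCGG, either strand) or a cAMP response element (TGACGTCA). An E-box (CACGTG) was also searched and is in none of the 3 windows.
Cdkn2a distal start (chr4:89294620-89294869): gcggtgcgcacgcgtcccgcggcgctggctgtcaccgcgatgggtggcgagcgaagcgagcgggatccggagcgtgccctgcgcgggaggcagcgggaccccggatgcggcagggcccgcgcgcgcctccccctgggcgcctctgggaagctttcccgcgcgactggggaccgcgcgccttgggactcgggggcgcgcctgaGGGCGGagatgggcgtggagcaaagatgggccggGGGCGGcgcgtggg
Cdkn2a proximal start (chr4:89282193-89282442): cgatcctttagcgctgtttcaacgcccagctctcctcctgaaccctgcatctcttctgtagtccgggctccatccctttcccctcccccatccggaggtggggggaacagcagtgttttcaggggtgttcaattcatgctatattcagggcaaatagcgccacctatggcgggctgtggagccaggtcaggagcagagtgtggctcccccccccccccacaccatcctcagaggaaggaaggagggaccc
Cdkn2b (chr4:89311033-89311282): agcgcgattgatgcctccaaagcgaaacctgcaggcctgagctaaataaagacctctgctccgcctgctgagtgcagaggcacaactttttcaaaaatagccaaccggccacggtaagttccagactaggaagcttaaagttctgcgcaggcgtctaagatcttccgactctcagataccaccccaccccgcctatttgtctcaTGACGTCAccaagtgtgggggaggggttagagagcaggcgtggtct

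The distal Cdkn2a window holds 2 GC boxes at 78.4% G and C, the proximal one holds no match, and the Cdkn2b window holds 1 cAMP response element. Of all 32851 promoters in the table, 32.7% have a GC box, 1.55% the cAMP response element and 6.02% the E-box in such a window. The table held 10 promoters for 7 of the 10 genes, and none for Ccnd1, Ccnd2 and Cdkn1c. Of these, 6 have a GC box and 2 an E-box, with 4 E-boxes in that of Cdk4. A match of letters is a description and not a binding site.

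Cdkn2a and Cdkn2b lie on chromosome 4 beside Mtap and the type I interferon genes. Of 25 neighbours with a start within 1 Mb of Cdkn2a and a probe, 19 were tested. Of these, 7 passed adjustment (36.8%, against 5.30% of all tested probes), all in the lower direction for the GapmeR Ntep label. The groups did not overlap for 57.9% of the 19, against 32.1% of all tested probes. With the replicate block Ifna2 (-1.58, adjusted p = 0.0625 without it) also passed, at 0.032. Over the 19, the median log2 difference was -0.68, with 8 genes higher and 11 lower. Among the higher ones were Gm13275 (1.14), Gm13272 (1.09) and Gm13271 (0.88), which lie among the interferon genes and did not pass. Ifna4 gave 33.8, 147.3 and 91.4 on the arrays labelled GapmeR Ntep and 2081, 1412 and 852.1 on the control arrays, and was well above background on 1 of 3 Ntep arrays. All controls lay above all Ntep arrays, for a log2 difference of -4.14 (SE 0.61, adjusted p = 0.0288), whose size rests on values near background and was -2.73 after normexp background correction. Ifnb1 (-2.49), Ifna13 (-2.35), Ifna12 (-2.17) and Ifna5 (-2.05) were also lower, with adjusted p-values from 0.0326 to 0.0471. Of these, Ifna13 was well above background on 2 of 3 Ntep arrays and Ifna12 on 1 of 3, and neither passed after normexp background correction (-1.31, adjusted p = 0.0521, and -1.09, adjusted p = 0.0533), nor did Ifna12 as the mean of its probes (-0.90, adjusted p = 0.229). The other 2 were Hacd4 and Ifnab, named after their values were seen. With the spread shared over all probes, or with no filter on signal, Hacd4 was the only 1 of the 7 still called. Ifna4, at the same log2 difference, then had adjusted p-values of 0.0505 and 0.0867. With 75th percentile scaling, Ifna13 (adjusted p = 0.0529) and Ifna12 (0.071) did not pass. Interferon alpha genes are near-identical copies, so their probes may share signal. Mtap, which lies between the interferon genes and Cdkn2a, had a log2 difference of 0.55 (adjusted p = 0.123). The intervals of the brightest Cdkn2a and Cdkn2b probes included 0, and that of the dimmer Cdkn2b probe did not.

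**Figure D3:**
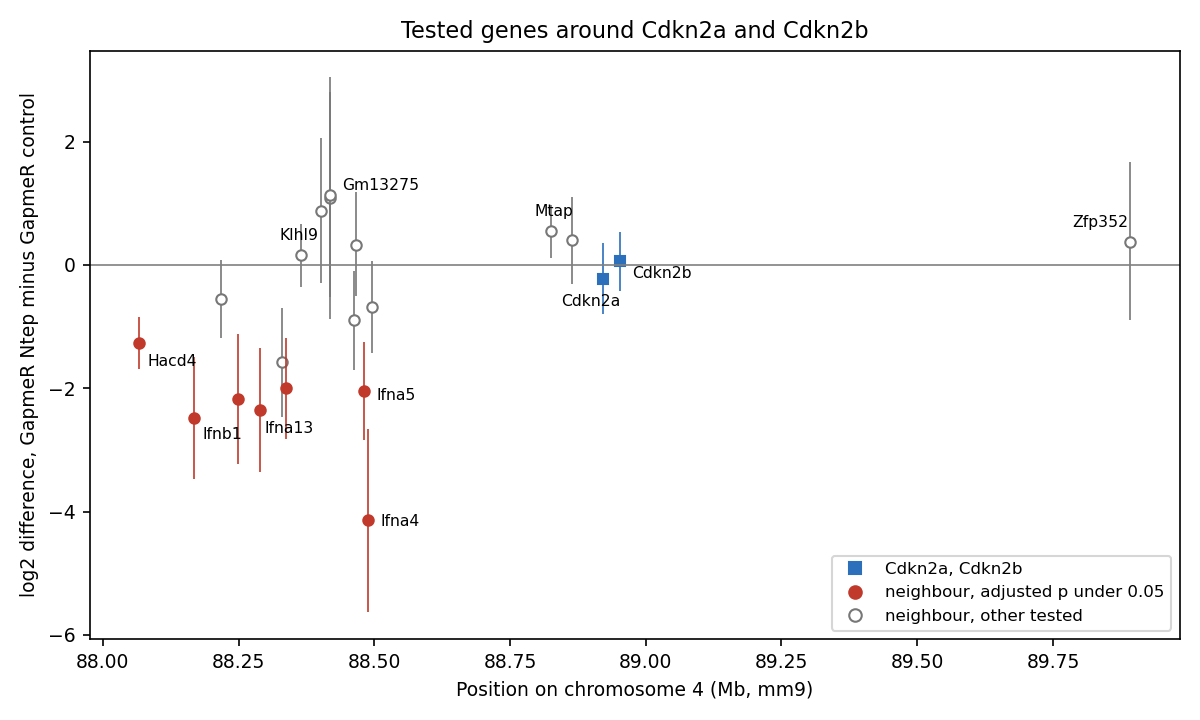
log2 difference (GapmeR Ntep minus GapmeR control) against position on chromosome 4 (Mb, mm9) for the 19 tested neighbours and for Cdkn2a and Cdkn2b (blue squares), with limma 95% intervals as lines. The 7 called neighbours (red) lie in the interferon cluster or next to it, at -1.26 to -4.14, and the blue squares at -0.22 and 0.06.

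Of the partners and substrates of G1 and S phase kinases, 16 of 17 genes were tested, with a median log2 difference of 0.19. Of these, 1 passed (6.25%, against 5.30% of all tested probes). This was Tfdp2, a dimer partner of E2F proteins, at 740.7, 1490 and 896.3 on the arrays labelled GapmeR Ntep against 3444, 2877 and 2729 on the control arrays (log2 -1.59, SE 0.30, adjusted p = 0.0411). Cdkn1a (p21), the Cip/Kip inhibitor induced by P53, gave 20582, 10004 and 14155 against 7039, 5347 and 6710. Its groups did not overlap, and the log2 difference of 1.18 (SE 0.30) had an adjusted p of 0.0768, and of 0.0391 with the replicate block. A dimmer Cdkn1a probe, well above background on 3 arrays, passed (2.25, adjusted p = 0.0466). Another dimmer one, well above background on 6 arrays, did not (0.93, adjusted p = 0.197). Cdc25a (0.79), Cdk2 (0.67) and E2f4 (-0.60) did not pass. With 1 array left out, E2f4 ran from -1.09 (Ntep replicate 3) to -0.18 (Ntep replicate 2). Of the 17 assembly and turnover factors of these proteins, 0 passed in limma by the brightest probe, against 5.30% of all tested probes. At an unadjusted p under 0.05 there was 1, against 25.0% of all tested probes, and the median was 0.06. The largest differences were those of Ambra1 (-0.86, adjusted p = 0.0625), a substrate receptor for D cyclins, Gsk3b (-0.48), Fbxo4 (0.37), Ccnh (-0.34) and Mnat1 (-0.30). Of the 3 Gsk3b probes, a dimmer one passed in the other direction (1.08, adjusted p = 0.0326). The third was lower, like the brightest, and did not pass (-1.22, adjusted p = 0.147).

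Of 24 transcription and chromatin factors known to act on these genes, 22 were tested, with a median of 0.35. After adjustment 3 were higher (13.6%, against 5.30% of all tested probes called in either direction). Egr1 gave 13448, 6773 and 9407 on the arrays labelled GapmeR Ntep against 1530, 1569 and 2294 on the control arrays (log2 2.43, adjusted p = 0.0255). Jun (1.91, adjusted p = 0.032) and Foxo3 (1.33, adjusted p = 0.0419) also passed, Foxo3 by 1 of 2 probes and not as their mean (0.77, adjusted p = 0.148). Fosl1 (2.66, adjusted p = 0.0797, and 0.031 with the replicate block) and Fos (1.67, adjusted p = 0.352) did not. Fos rested on 1 array, with 22861, 1871 and 2245 on the arrays labelled GapmeR Ntep, and gave 0.51 without replicate 1 of that label and 0.43 with outlier spots left out or in the authors' table. Of 20 S phase genes driven by E2F, 1 passed, a share no higher than the 5.30% of all tested probes, and the median was 0.25. The gene was Orc1 of the origin recognition complex (log2 1.12, adjusted p = 0.0497). Orc1 was no longer called with 75th percentile scaling (adjusted p 0.065), a floor of 5 (0.0514), no filter on signal (0.102), the spread shared over all probes (0.0592) or any 1 array left out. Gins2 (-0.76), Tk1 (-0.69), Ung (-0.67) and Cdc6 (0.56) did not pass by their brightest probes, while the dimmer Cdc6 probe did (1.06, adjusted p = 0.0307). The brightest Cdc6 probe gave 1.11 and passed without GapmeR Ntep replicate 2 (adjusted p = 0.0439). It gave 0.26 without GapmeR Ntep replicate 1. With 1 array left out, Gins2 ran from -1.12 to -0.46. In all, 12 of 103 tested list genes passed (11.7%, against 5.30% of all tested probes), and 52 did not overlap between the groups (50.5%, against 32.1%). Of the 12, 7 were neighbours of Cdkn2a, and the other lists gave 5 of 84 (5.95%). The shares passing were closer with the replicate block (15.5% against 13.8%), with the spread shared over all probes, which was chosen after seeing the data (5.83% against 5.35%), and with the methods' t-test (0.971% against 0.920%), turned round with no filter on signal (0.877% against 1.01%), and were further apart with an intensity trend (19.4% against 8.74%). Fits with 1 array left out lost calls on the whole array too. Without GapmeR control replicate 1, 2 or 3 or GapmeR Ntep replicate 3, 0 of the 12 remained (lowest adjusted p 0.055, 0.129, 0.0853 and 0.0997), 2 remained without GapmeR Ntep replicate 1 and 6 without GapmeR Ntep replicate 2. The differences stayed of similar size in these fits, such as 2.16 to 2.68 for Egr1, 1.72 to 2.14 for Jun and -2.78 to -2.15 for Ifnb1. The methods' t-test kept 1 of the 12, Hacd4, and all 12 kept their direction in each setting that was fitted to single probes.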

How the data were processed

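RNA of 6 cultures of 3T3 cells was measured on Agilent mouse expression arrays (1 color). The authors deposited scanner intensity values per array, background subtracted by Feature Extraction 10.7.3.1, and a quantile-normalized intensity table with low values set to 20. Scanner flags, which are no measured unit, gave the presence calls. Here spots of a probe were averaged over 59305 non-control spots, quantile normalization was applied between arrays with a floor of 20, and limma 3.58.1 (R 4.3.3) was fitted to the log2 values without pairing. Only probes averaging 50 or more in either group entered the fit. Adjustment was by Benjamini-Hochberg over 30990 probes, and all tests are two-sided. Steps were tested on simulated data. Replicate numbers follow the study's supplementary documentation, which pairs the arrays by experiment. Deviations of arrays with the same number correlated at 0.466, 0.300 and 0.254 (others -0.327 to 0.126), so a replicate block was fitted as an alternative.

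The brightest probe stands for a gene, and every probe of the 10 genes is given. Per list, genes called after adjustment are named first (at most 5 by size), then the largest differences up to 5. The members and lists were chosen with earlier results of these data known. Gene names came from RefSeq (GRCm38.p6), where 31239 probes found a match. Probe positions are those of mm9 in the files. Exon and UTR annotation of that build was not used here. Alternatives changed the scaling, background correction, floor, filter, source of values, test, spread, outlier spots, arrays and choice of probe. Arrays limit precision by their number, 3 per group. A gene that the rule on similar patterns would name is not reported here.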

Additional observations from a re-analysis of the deposited data

How the results depend on the processing

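With 3 arrays per group only large differences pass, and Cdk6, Cdkn1c and the dimmer Cdkn1b probe are at or near background, where the arrays limit what can be read. After adjustment, 0 of the 10 genes were called under every alternative run (limma or the methods' t-test), and the replicate block changed no call among them. The 5 Ink4 presence calls held under both other rules. The direction of single genes flipped for Ccnd3 (0.07) and Cdk4 (0.10) with 75th percentile scaling. Leaving out 1 array gave -0.04 at the lowest for Ccnd1 (highest 0.42), -0.05 to 0.18 for Cdkn2b (-0.02 without GapmeR Ntep replicate 1), -1.09 to 0.13 for A630089N07Rik, and 0.09 to 1.12 for Cdk6, which did not flip. The cause was not tested.

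Genes with groups that do not overlap numbered 0 with normexp background correction, 1 (Cdk4 in place of Ccnd2) with 75th percentile scaling, and 1 to 5 with 1 array left out.

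The list genes called (12) became 9 with 75th percentile scaling, 11 with a floor of 5, 1 with no filter on signal and 1 with the methods' t-test, 20 with an intensity trend, 6 with the spread shared over all probes (chosen after seeing the data), 16 with the replicate block and 0 to 7 with 1 array left out. All tested probes called (1642) became 564 with no filter on signal, 2884 with a filter on well above background, 4292 with the replicate block, 285 with the methods' t-test, 2707 with an intensity trend and 0 to 1437 with 1 array left out. Fewer arrays leave fewer degrees of freedom, and the unfiltered fit changes both the number of probes adjusted over and the shared spread. After normexp with an offset of 50 the filter on signal removed no probe. Of the 12 list genes, 3 were still called with the spread shared over all probes (Egr1, Hacd4 and Jun).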

Other observations

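For each of the 9 tested genes, the 2 genes with the most similar pattern over the 6 arrays were looked up among the 22647 probes detected well above background on each array. With 6 arrays and so many probes high values of Pearson r arise in any case, and they are given as a description. Ccnd1 was followed most closely by Kcmf1 (r = 0.997) and Klra16 (0.992), and Ccnd2 by Cd47 (0.998) and Enah (0.997). Ccnd3 had Lman2l (0.993) and Phactr4 (0.992) nearest, and Cdk4 had Akt2 (0.995) and Faap20 (0.995). Nearest to Cdk6 were Gm6211 (0.989) and Ube2w (0.977), and Pias1 (0.994) was nearest to Cdkn1b, for which 1 gene is given. Cdkn2a went with Oxld1 (0.999) and Fgfrl1 (0.999), Cdkn2b with Hmgn1 (0.995) and Arel1 (0.982), and Cdkn2c with Aldh1l1 (0.958) and 2310068J16Rik (0.954).

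Cd68, a macrophage-associated gene of the lysosome, was the only cell type marker that passed adjustment in the unpaired fit, which 5.30% of all tested probes did. With the replicate block, Csf1r, Cd14, Itgam, Krt14, Dcn and Myog also passed (adjusted p 0.031 to 0.0397), against 13.8% of all tested probes. Tested were 11 fibroblast, 5 macrophage, 6 epithelial, 2 endothelial, 3 muscle and 2 neural markers. Cd68 read 11892, 11260 and 9404 on the arrays labelled GapmeR Ntep and 5022, 4587 and 4380 on the control arrays. The groups lay far apart (log2 1.21, limma adjusted p = 0.0287), and the call was lost when any 1 array other than GapmeR Ntep replicate 2 was left out (adjusted p 0.0586 to 0.136).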
